A study of Mus musculus with 31 samples.

Results

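The genes described here are 10 muscle genes of the heart type, Myh6, Myl4, Myl7, Nppa, Sln, Tnnt2, Tnni3, Actc1, Ryr2 and Pln, measured in whole lung of mice. They were taken from a list of names that was chosen with earlier results of these data known. They are 10 of the 19938 genes that the array annotation names without ambiguity. For each gene the probe set (the group of array probes that reads it) with the highest mean was used. Each of the 10 had 1 probe set, and all 10 were among the 14705 genes that passed the filter on low values and were tested.

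The pulmonary veins of mice and other rodents carry sleeves of heart muscle that run from the left atrium along the veins into the lung, so a lung sample of a mouse can hold heart muscle cells. These cells resemble those of the atrium: they use the atrial light chains Myl4 and Myl7, and atrial muscle also makes the hormone precursor Nppa and the calcium pump inhibitor Sln. Ventricular muscle uses the light chains Myl3 and Myl2 in their place. The other genes are shared by the atrium and ventricle of the adult mouse: the motor protein Myh6, the actin Actc1, the troponins Tnnt2 and Tnni3, the calcium release channel Ryr2 and the calcium pump regulator Pln.

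The study measured lung RNA of male AKR and C57 BL/6 mice, both inbred strains, on 31 arrays in 11 groups, and the labels give an age of 6 wk for every mouse. In C57 mice, 3 were kept in room air alone (titled 6 wk), 3 each received saline after room air or after cigarette smoke, and 3 each received LPS in saline after room air or after smoke. In AKR mice, 2 were kept in room air alone for 3 wk and 3 for 6 wk, 3 each received saline after air or smoke, 3 received LPS after air, and 2 received LPS after smoke. LPS is the endotoxin of bacterial cell walls, and both LPS and saline were given into the trachea. No group received smoke without an instillation. The titles give 3 wk of exposure to the instilled mice, and the study's design text gives 6 wk, so the length of exposure is uncertain. The labels describe the material only as lung tissue and do not say how the heart and the large vessels were trimmed.

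The arrays had high levels of lung genes: the surfactant gene Sftpc lay between 12.99 and 13.83 on the log2 intensity scale on all 31 arrays, the club cell gene Scgb1a1 between 13.10 and 13.79, and the endothelial gene Pecam1 between 10.73 and 11.95. The arrays fell into 2 sets by their medians, which were 6.96 to 7.10 on 18 arrays (all C57 groups and AKR room air alone for 6 wk) and 6.80 to 6.90 on the other 13 AKR arrays, and no group was split between them. AKR and C57 levels are therefore tested against each other only in room air alone (6 wk), where both groups lie in the same set, while ranges and orders over all arrays run across both sets. The labels of 2 arrays went against the LPS response. The array labelled C57 smoke and saline, replicate 3, had 12.47 of the acute phase gene Saa3 and 11.11 of the neutrophil attractant Cxcl2, as the LPS arrays had, while the array labelled C57 smoke and LPS, replicate 3, had 6.06 and 5.21. Tests whose groups hold these 2 arrays are given with and without it. In bulk tissue, fewer cells of a type and less RNA per cell cannot be told apart.

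Promoter sequences of 3 of the genes are shown because the members moved together from array to array: an atrial light chain, the hormone precursor and the actin that changed with LPS. They are the 250 bases before the annotated transcription start, 5′ to 3′ on the gene's strand, from RefSeq on build GRCm38.p6. Capitals mark matches to 1 of 6 motifs searched on both strands: AGATAA for GATA factors, TNAAGTG for the factor NKX2-5, CATTCC for the MCAT element, TATAAA for the TATA box, and by name the CArG box and the MEF2 site. No 2 matches in these windows overlapped. The Myl7 window is chr11:5898783-5899032 on the minus strand, the Nppa window chr4:148000472-148000721 on the plus strand, and the Actc1 window chr2:114052876-114053125 on the minus strand.
Myl7: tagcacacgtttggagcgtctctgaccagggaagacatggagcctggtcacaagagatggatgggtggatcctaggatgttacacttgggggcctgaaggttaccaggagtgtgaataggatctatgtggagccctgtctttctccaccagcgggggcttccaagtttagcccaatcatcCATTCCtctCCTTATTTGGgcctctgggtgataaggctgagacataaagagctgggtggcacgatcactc
Nppa: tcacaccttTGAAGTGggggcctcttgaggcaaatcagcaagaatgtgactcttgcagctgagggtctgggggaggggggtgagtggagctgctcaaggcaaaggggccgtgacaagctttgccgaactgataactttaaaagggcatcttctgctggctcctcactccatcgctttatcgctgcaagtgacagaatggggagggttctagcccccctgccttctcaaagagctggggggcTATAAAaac
Actc1: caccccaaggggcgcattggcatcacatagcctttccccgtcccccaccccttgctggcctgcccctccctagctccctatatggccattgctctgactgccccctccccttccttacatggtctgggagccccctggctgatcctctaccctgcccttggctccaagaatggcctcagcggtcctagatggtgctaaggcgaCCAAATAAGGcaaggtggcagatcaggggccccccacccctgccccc

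The Myl7 window held an MCAT motif 70 bases before the start and a CArG box, the site read by serum response factor, 61 bases before it. The Actc1 window held a CArG box 47 bases before the start. The Nppa window held an NKX2-5 motif at 241 and a TATA motif at 9 bases before the start. RefSeq gave promoters for 9 of the 10 genes, 10 in all, and all but Sln had one. CArG boxes were found in 2 of the 10 (Actc1 and Myl7) against 1.47% of the 32851 promoters of the same length, MCAT in 3 (Myh6, Myl7 and Tnnt2) against 12.6%, GATA in 2 (Pln and Tnnt2) against 9.99%, TATA in 2 (Nppa and Pln) against 12.4%, NKX2-5 in 1 against 10.1%, and MEF2 in 0 against 2.92%. These matches describe letters in the windows and were not tested as binding sites. Only the letters AGATAA counted as GATA, so variants such as TGATAA, present in the Myl7 and Nppa windows, are unmarked and uncounted.

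All 10 genes were measurable in lung, and most of them far above the dim part of the array. Of the 10, 8 (all but Nppa and Sln) lay above the array's 40th percentile on all 31 arrays, and Nppa and Sln lay above it on 25. On the log2 intensity scale the actin Actc1 ran from 10.27 to 13.14 with a median of 11.93 over the 31 arrays, and the atrial light chain Myl4 from 10.05 to 13.03 with a median of 11.81. Levels of different probe sets are not on a common scale, so each gene is set only against itself.

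The contractile genes differed between 6.97-fold and 18.3-fold between the lowest and the highest lung. Myh6, the main myosin heavy chain of the adult mouse heart, ran from 8.16 to 12.36 with a median of 10.35, an 18.3-fold range. Myl7 ran from 8.39 to 12.43 with a median of 10.51, a 16.4-fold range, and Myl4 spanned 7.92-fold. Of the thin filament genes, Tnni3, the inhibitory troponin, ran from 8.73 to 12.09 (10.2-fold), Tnnt2, the troponin that holds the complex on tropomyosin, from 9.38 to 12.18 (6.97-fold), and Actc1 spanned 7.33-fold. Of the calcium handling genes, Pln ran from 7.48 to 11.15 (12.8-fold), Ryr2 from 7.05 to 10.27 (9.33-fold) and Sln from 5.74 to 7.60 (3.64-fold). The hormone precursor Nppa had the widest range, from 5.63 to 10.06 (21.6-fold). The array labelled C57 air and LPS, replicate 2, was the lowest of the 31 for 7 genes (Myh6, Myl4, Myl7, Nppa, Tnni3, Ryr2 and Pln), and AKR air and saline, replicate 3, was the highest for 8, the exceptions being Nppa and Sln.

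**Figure D1:**
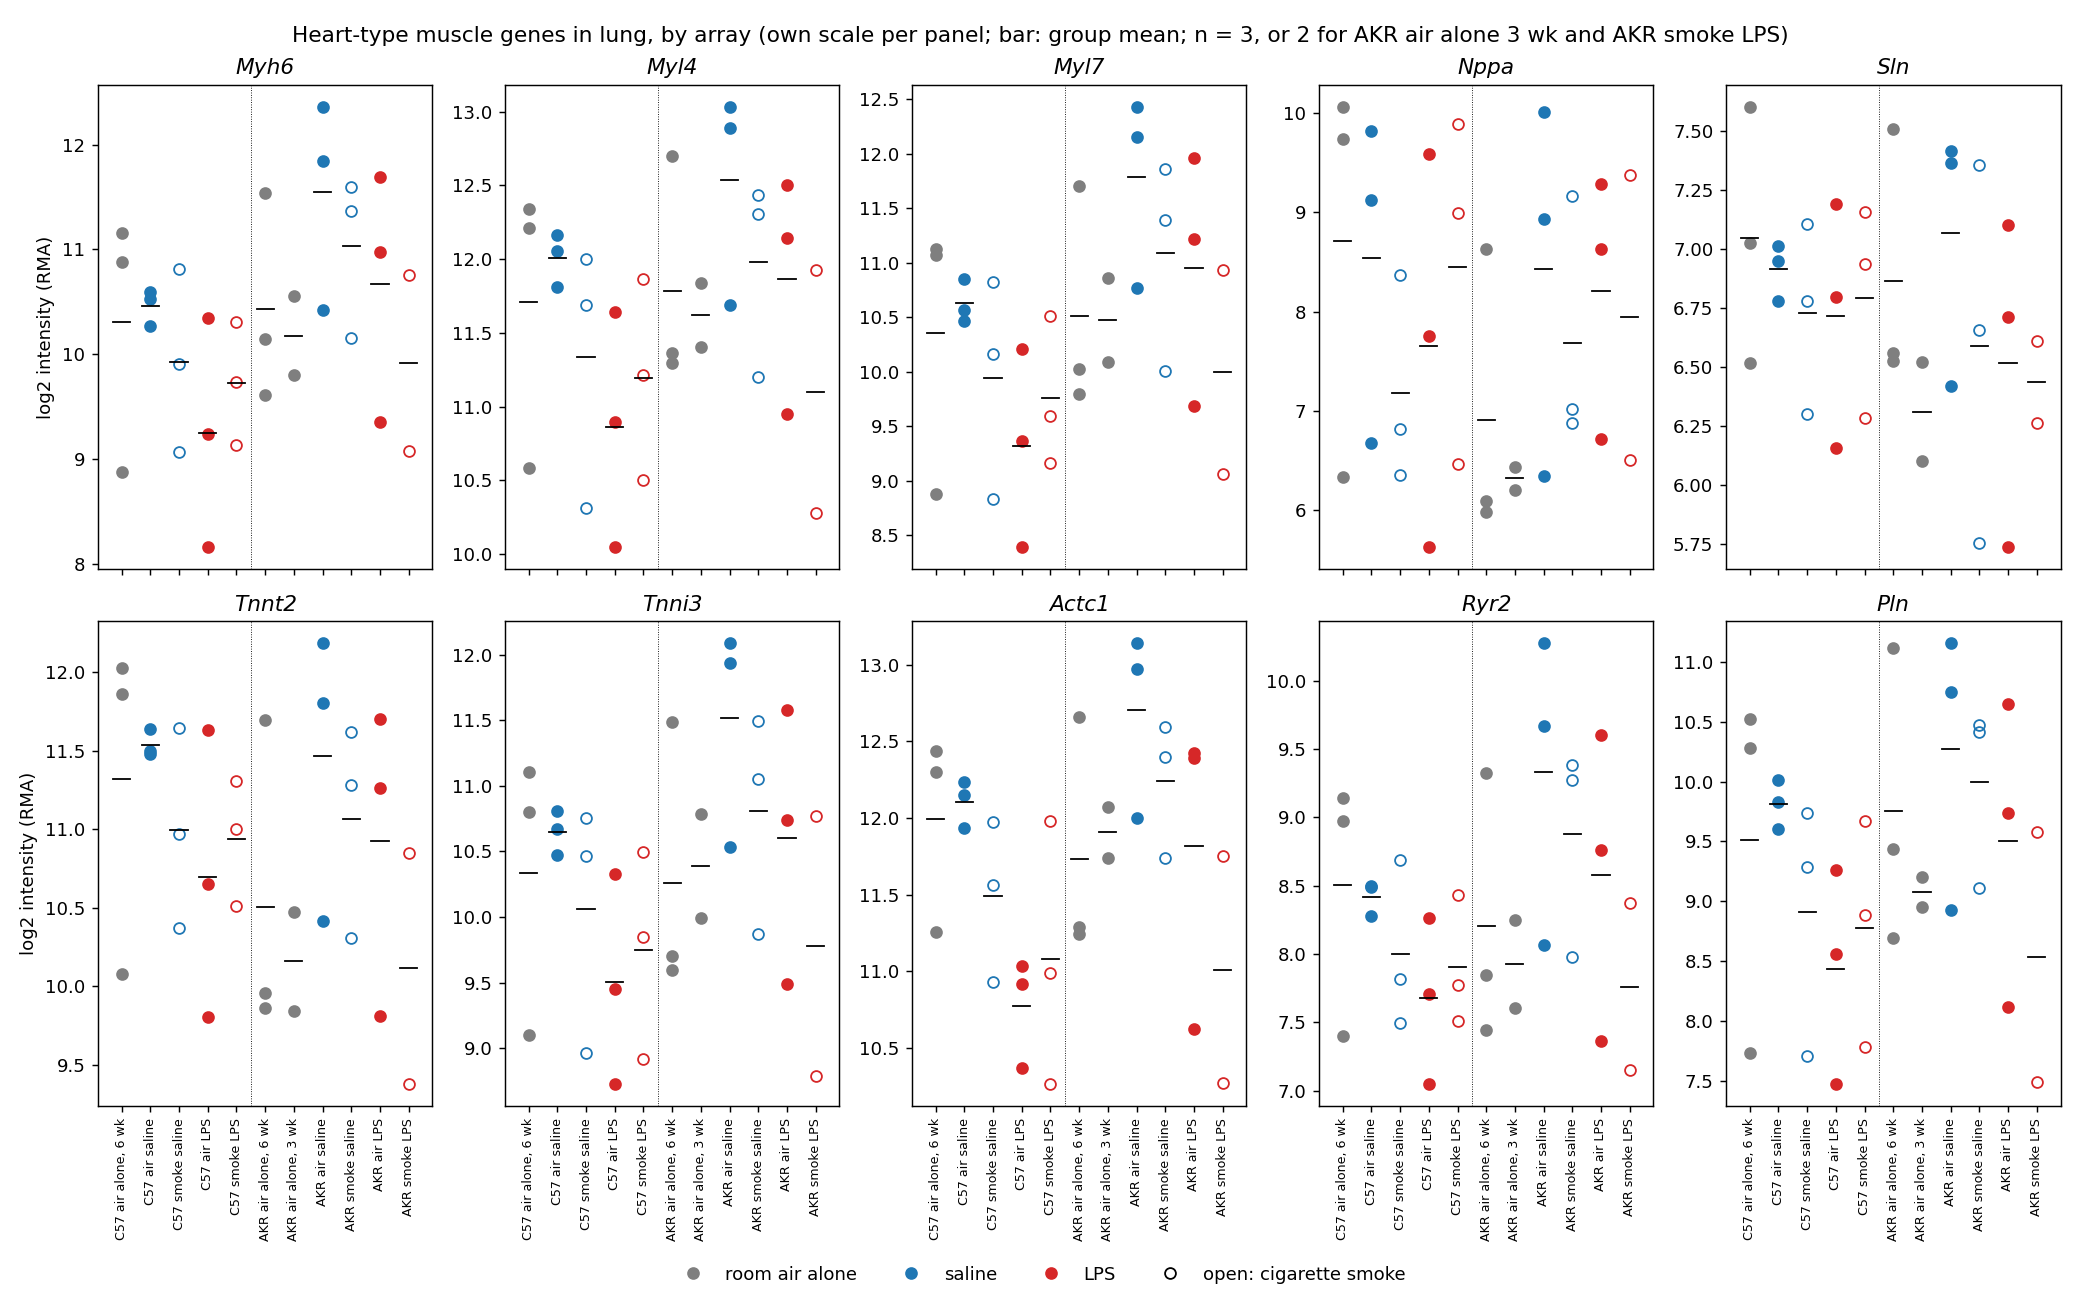
Log2 intensity of each of the 10 heart-type genes (vertical axis, own scale in each panel) on each array of the 11 groups (horizontal axis); points are arrays (grey in room air alone, blue with saline, red with LPS, open after smoke), bars are group means of 2 or 3 arrays, and the dotted line parts C57 from AKR. Arrays of 1 group often lie as far apart as arrays of different groups, as for Nppa in the C57 air and saline group (6.68, 9.82 and 9.13).

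Myl7 shows how the spread lay within groups. In room air alone, the 3 C57 lungs had 8.88, 11.12 and 11.07, the 2 AKR lungs of 3 wk had 10.86 and 10.09, and the 3 AKR lungs of 6 wk had 10.02, 11.71 and 9.79. The low lung of the C57 group and the high lung of the AKR group each stood apart from both of the others. With saline after air, the C57 lungs were close together at 10.47, 10.57 and 10.85, while the AKR lungs had 12.15, 10.77 and 12.43. With saline after smoke, the C57 lungs had 10.16, 10.82 and 8.83, the last on the doubted array, and the AKR lungs had 11.86, 11.40 and 10.01. With LPS after air, the C57 lungs had 10.21, 8.39 and 9.37 and the AKR lungs 11.97, 9.68 and 11.22. With LPS after smoke, the C57 lungs had 9.59, 9.16 and 10.51, the last on the doubted array, and the AKR lungs 10.93 and 9.06. In 9 of the 11 groups the lungs of like treatment thus spanned over 1 log2 unit, and the saline and LPS lungs of AKR mice overlapped.

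Nppa, which codes for atrial natriuretic peptide, split many groups more sharply. In room air alone the C57 lungs had 6.34, 9.74 and 10.06 and the AKR lungs of 6 wk 5.98, 8.64 and 6.10. The 2 AKR lungs of 3 wk were close together at 6.20 and 6.43, near their arrays' 40th percentiles of 6.23 and 6.18, where signal is low. With saline after air, the C57 lungs had 6.68, 9.82 and 9.13 and the AKR lungs 8.94, 6.34 and 10.02. With saline after smoke, they were 6.82, 8.37 and 6.35 in C57 and 9.16, 7.02 and 6.88 in AKR. With LPS after air, the C57 lungs had 9.59, 5.63 and 7.75 and the AKR lungs 9.28, 6.71 and 8.63. With LPS after smoke, the C57 lungs had 9.89, 6.46 and 9.00 and the AKR lungs 9.38 and 6.50. A lung under 7 and a lung over 8.5 occurred together in 9 of the 11 groups, in both strains and with or without LPS. The C57 air and saline group was tight for the other genes and not for Nppa: its SD was 1.65 for Nppa (n = 3) against a median of 0.17 over the 10 genes.

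The order of the group means runs across the 2 sets of arrays, whose medians differ. AKR air and saline had the highest mean of 8 genes (Myh6, Myl4, Myl7, Sln, Tnni3, Actc1, Ryr2 and Pln), and C57 air and LPS had the lowest of 7 (Myh6, Myl4, Myl7, Tnni3, Actc1, Ryr2 and Pln). For Myh6 these means were 11.54 ± 1.00 (SD, n = 3) and 9.25 ± 1.09 (n = 3), and the groups between them ran from 11.04 ± 0.77 in AKR smoke and saline to 9.73 ± 0.58 in C57 smoke and LPS (n = 3 each). For Tnnt2 the highest mean was 11.54 ± 0.09 in C57 air and saline (n = 3) and the lowest 10.12 ± 1.04 in AKR smoke and LPS (n = 2). For Nppa the highest was 8.71 ± 2.07 in C57 room air alone (n = 3) and the lowest 6.32 ± 0.16 in AKR room air alone of 3 wk (n = 2). That lowest mean lies near the 40th percentile of its arrays. For Sln the means lay within 0.76 of each other. Of the 10 pairs of neighbours in each gene's order, which are the closest means by construction, 0 differed by more than the 95% half-interval of their difference, for each of the 10 genes. The highest and the lowest mean differed by more than that half-interval in 8 genes, all but Nppa and Sln: by 2.29 against 1.46 for Myh6, by 1.93 against 1.05 for Actc1 and by 1.42 against 1.42 (a difference just past it) for Tnnt2. These groups were picked as the extremes of 11 and lie in different sets of arrays for these 8 genes, so this is a description and no test.

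The spread between lungs of a group was among the widest on the array. The pooled within-group SD (the residual spread after the 11 group means, 20 degrees of freedom) was 1.63 for Nppa, which ranked 6 among the 14705 genes, 1.07 for Pln, 0.96 for Myl7, 0.93 for Myh6, 0.91 for Tnni3, 0.81 for Tnnt2 and for Ryr2, 0.77 for Myl4, 0.67 for Actc1 and 0.53 for Sln, which ranked 349. All 10 lay above the 95th percentile of the tested genes, 0.41, which 5.01% of genes reach, and the median gene had 0.16. The genes were chosen with earlier results of these data known, so this is a description and no test. Of related lists, 18 of 29 other sarcomere genes of the heart, 9 of 14 muscle mitochondrial and energy genes and 5 of 15 heart calcium and ion channel genes reached it, as did 3 of 8 atrial and pulmonary vein genes, 2 of 4 ventricle-type genes and 1 of 11 heart transcription factors. Of the markers of other cells, 5 of 7 of adipocytes reached it (median SD 0.57), 2 of 14 of smooth muscle, 1 of 12 of skeletal muscle, 0 of 5 of thymocytes and 2 of 14 of lung. By group, the median SD of the 10 genes ran from 0.17 in C57 air and saline and 0.38 in AKR room air alone of 3 wk (n = 2) to 1.09 in AKR air and LPS and 1.18 in AKR smoke and LPS (n = 2).

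The genes rose and fell together from lung to lung. After the group means were removed, the 45 pairs of genes had Pearson correlations of 0.81 to 0.99 over 31 arrays, with a median of 0.94, and Spearman correlations of 0.79 to 0.99. The tightest pair was Myl4 with Tnni3 at 0.99 and the loosest Nppa with Sln at 0.81. Among the 28 pairs without Nppa and Sln the lowest was 0.92. Leaving out the 2 arrays farthest from the median left the lowest of the 45 at 0.77, leaving out the doubted pair of arrays left it at 0.80, and within the sets of 18 and 13 arrays it was 0.79 and 0.82. These correlations are a description: the points share group means fitted to the same arrays, the same RNA and the same scaling of each array.

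The shared movement is plain in single lungs. On 21 of the 31 arrays all 10 genes lay on the same side of their group means, and on 27 at least 9 did. The mean deviation of the 10 genes from their group means was lowest at -1.30 in C57 room air alone, replicate 1, and at -1.18 in AKR air and LPS, replicate 2, and highest at 1.14 in AKR room air alone of 6 wk, replicate 2. Of the doubted pair, the array labelled smoke and saline, which had the LPS response, lay at -0.82. The array labelled smoke and LPS, which lacked it, lay at 0.63. Both values lie within the range of the other arrays, -1.30 to 1.14, and a link to LPS was not tested on these 2 arrays.

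**Figure D2:**
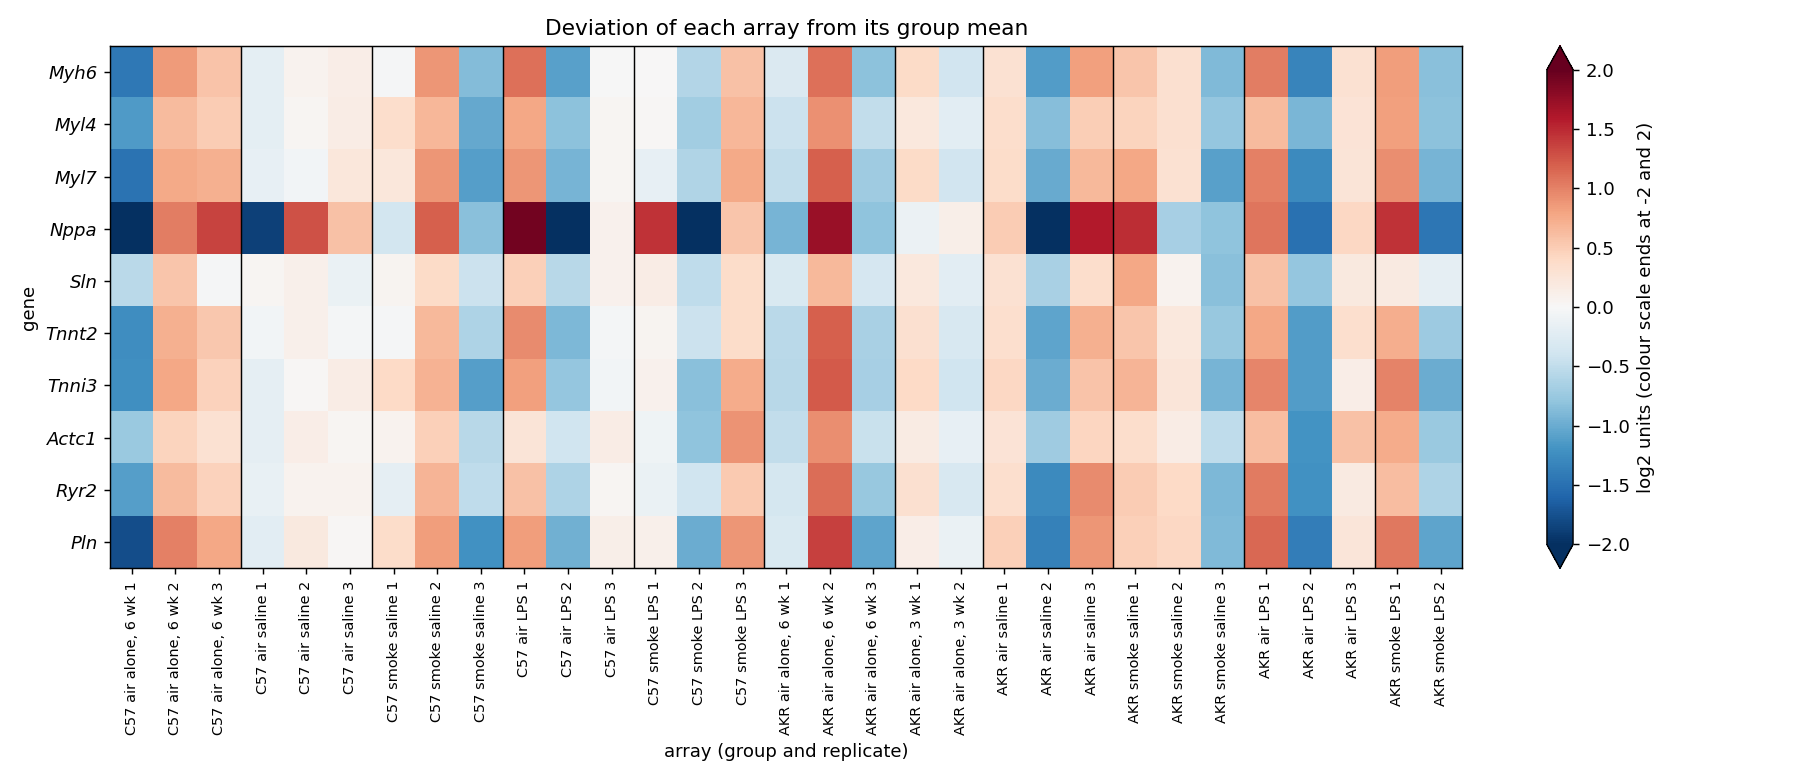
Deviation of each heart-type gene (rows) from its group mean on each of the 31 arrays (columns, ordered by group), as a colour scale in log2 units that ends at -2 and 2. On most arrays the whole column has one colour: all 10 genes lie on the same side of the group mean on 21 of 31 arrays.

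The genes that moved most like the 10 were other genes of heart and striated muscle. Likeness was measured as the Pearson correlation over 31 arrays, with group means removed, between a gene and the mean deviation of the 10. The 10 closest genes outside the list were Actn2 (0.99), the actinin of the sarcomere's Z-disc, Myoz2 (0.99), Mb (0.98), the oxygen store myoglobin, Ldb3 (0.98), Mybphl (0.98), Casq2 (0.98), the calcium store protein of heart muscle, Smpx (0.98), Mlip (0.98), Ckmt2 (0.97), the mitochondrial creatine kinase of striated muscle, and Hjv (0.97). Without the 2 farthest arrays they kept correlations of 0.97 to 0.99. In all, 255 genes reached 0.8, which is 1.73% of those tested and includes the 10 themselves, and 78 reached 0.9, which is 0.53%.

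Many but not all genes on the lists of the heart muscle cell moved with the 10. Among other sarcomere genes, 21 of 29 tested reached a correlation of 0.8, with a median of 0.89, such as Tnnc1 (0.96), Csrp3 (0.96), Ttn (0.95) and Mybpc3 (0.93), while Myh7 had 0.41 and Nebl -0.65. Among muscle mitochondrial and energy genes, 10 of 14 reached it, with a median of 0.94, such as Fabp3, the fatty acid binding protein of heart (0.97), and Cox7a1 (0.97). Among calcium and ion channel genes 7 of 15 did, such as the calcium pump Atp2a2 (0.95) and the potassium channels Kcnj3 (0.96) and Kcnj5 (0.92). Of the heart transcription factors 3 of 11 did, namely Tbx20 (0.97), Gata4 (0.83) and Myocd (0.82), while Tbx5, which lung mesenchyme also uses, had 0.00 and Mef2a -0.78.

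Genes of atrium and of ventricle were described list by list, each gene on its own scale. Of the atrial and pulmonary vein list, Mybphl (6.50 to 9.64), Kcnj3 (6.00 to 8.52) and Corin (6.41 to 8.82), the protease that activates the Nppa product, had correlations of 0.98, 0.96 and 0.94 with the 10 genes, 3 of 8 tested genes at or above 0.8, with a list median of 0.58. Of the ventricle-type list, 2 of 4 tested genes reached it, Myl3 (0.88) and Lrrc10 (0.84), with a list median of 0.62. Both stand on the list of other sarcomere genes too, and Myh7 (0.41) and Hey2 (-0.32) did not reach it. The natriuretic hormone gene Nppb stayed between 5.93 and 6.81, and Bmp10, Kcna5 and Shox2 did not pass the filter on low values. Myl2, the light chain that defines ventricular muscle, lay between 5.20 and 6.00 and above the 40th percentile on 0 of 31 arrays, and the ventricular factor Irx4 lay between 4.95 and 6.09, above it on 0. Other genes of that kind were above it: Myh7 on 31 arrays and Myl3 on 29. Myl3, a light chain of ventricle and slow skeletal muscle, lay between 6.35 and 7.33 on the 15 C57 arrays and between 7.19 and 10.04 on the 16 AKR arrays, most of which are in the set with lower medians.

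The lists of other cell types had median correlations with the 10 genes of -0.32 to 0.69, and their part in the results was not tested. Of 20 skeletal muscle markers, 8 did not pass the filter, among them the fast myosins Myh1, Myh2 and Myh4, and 1 of the 12 tested reached 0.8, Ckm (0.96), which heart muscle also uses. Of 14 smooth muscle markers 4 reached it, namely Myh11 (0.86), Synpo2 (0.85), Myocd (0.82) and Cnn1 (0.82), with a median of 0.69 (Myocd and Des stand on heart lists too). Of adipocyte markers 0 of 7 did, with a median of 0.66 and Fabp4 highest at 0.74, and of thymocyte markers 0 of 5. The lung markers had a median of -0.32, with the ciliated cell gene Foxj1 highest at 0.81 and Hopx and Pecam1 lowest at -0.71 and -0.69.

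**Figure D3:**
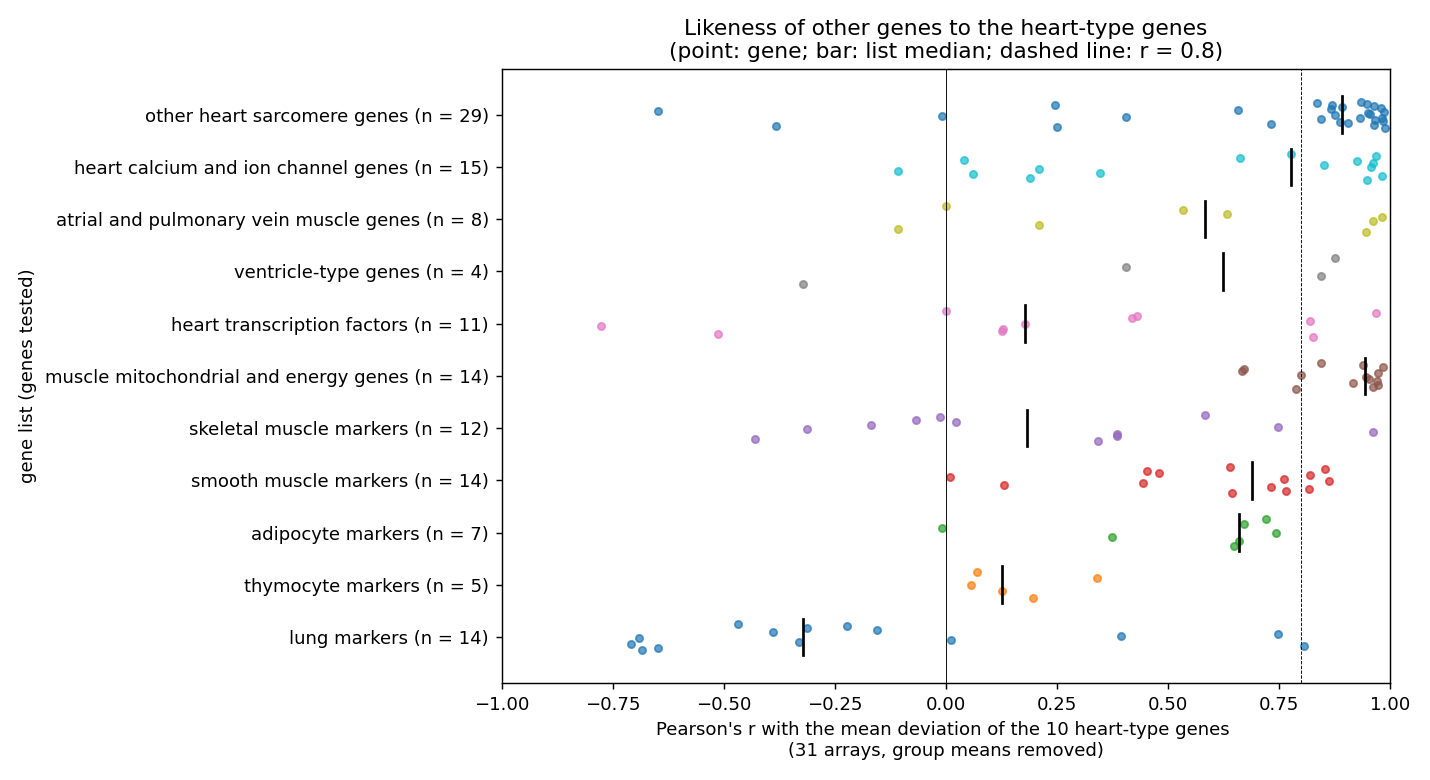
Pearson correlation of single genes (points) with the mean deviation of the 10 heart-type genes over 31 arrays (horizontal axis), by gene list (vertical axis); black bars are list medians and the dashed line marks 0.8. Sarcomere genes and muscle energy genes cluster at the right (medians 0.89 and 0.94), and lung markers lie mostly below 0 (median -0.32).

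The first question of the design is how the lung responds to LPS. Heart-type genes were lower with LPS than with saline in most strata, but only Actc1 passed the threshold, in the average over strata. Averaged over the 4 strata of strain and exposure (11 LPS and 12 saline arrays), Actc1 fell by 0.97 on the log2 scale, with a standard error of 0.26, a 1.96-fold lower level (limma, adjusted p = 0.00385 over 14705 genes). It was 1 of 10 genes past an adjusted p of 0.05, against a background of 48.4% of all genes called in this comparison and 25% called lower. The share of the list called lower was therefore not above that of all genes, and 10 genes are too few to place it below. An unadjusted p under 0.05 in limma's test was found for 7 of the 10, against 7963 of the 14705 genes. The median difference of the 10 was -0.78, against -0.02 over all genes. Pln had -0.94 ± 0.42 (standard error, adjusted p = 0.0682), Myh6 -0.85 ± 0.36 (0.0569), Myl7 -0.85 ± 0.37 (0.0639) and Tnni3 -0.85 ± 0.35 (0.0508), and none of these 4 passed limma's test. Nppa did not share the direction, at 0.10 ± 0.63. The probes of Actc1 may cross-react with other actins, and 13 of 14 smooth muscle markers also fell in this comparison. The part of other actins in the Actc1 result was not tested.

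The doubted pair of arrays weighed on this comparison. Without it, 7 of the 10 genes fell past the threshold (Actc1, Myl4, Tnni3, Myl7, Pln, Myh6 and Ryr2, with limma's adjusted p between 0.000649 and 0.0459), against 28.4% of all genes called lower, and the median became -0.98. Tnnt2 had -0.72 with an adjusted p of 0.0736, Sln -0.31 and Nppa -0.07. The p-values of all comparisons measure the spread between lungs that the titles call biological replicates.

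Within strata the differences were below 0 for most of the genes but rested on few lungs. They were below 0 for 10 of the 10 genes after air in each strain, for 9 after smoke in AKR mice and for 8 after smoke in C57 mice. The genes moved together from lung to lung, so these counts are not separate observations of each gene. The median over all genes was -0.01 and -0.04 after air in C57 and AKR mice, and -0.03 and -0.003 after smoke. After air in C57 mice, Actc1 was 11.93, 12.24 and 12.15 with saline and 11.03, 10.37 and 10.91 with LPS, and the groups did not overlap. The difference was -1.33 ± 0.51 (standard error, limma adjusted p = 0.072). Of the 10 genes 0 passed, against 15.7% of all genes called and 4.3% called lower. An unadjusted p under 0.05 in limma's test was found for 1 of the 10, against 4701 of the 14705 genes. In 6 genes (Myl4, Myl7, Tnni3, Actc1, Ryr2 and Pln) every LPS lung lay below every saline lung, which held for 17.1% of all genes, and the median of the 10 was -1.15 against -0.01 over all genes. Without the doubted pair, which is not part of this contrast but enters the shared estimate of the spread, Actc1 passed with an adjusted p of 0.044, 1 of 10 genes against 7.68% of all genes called lower. With only these 2 groups in the fit, 4 of the 10 passed (Actc1, Pln, Myl7 and Myl4), and the number of all genes called was 3052, 1999 of them higher, against 2316 in the shared fit.

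After air in AKR mice, Actc1 was 12.97, 12.00 and 13.14 with saline and 12.43, 10.62 and 12.39 with LPS, so that 2 LPS lungs lay above the lowest saline lung. The median difference of the 10 genes was -0.77, 0 of 10 passed against 16.9% of all genes, and the lowest adjusted p was 0.242. After smoke in AKR mice, Actc1 was 12.59, 12.40 and 11.74 with saline and 11.75 and 10.27 with LPS, a difference of -1.23 ± 0.57 (limma adjusted p = 0.102). The median of the 10 was -1.06 and 0 of 10 passed against 31.5% of all genes. After smoke in C57 mice, Actc1 was 11.56, 11.97 and 10.93 with saline and 10.99, 10.27 and 11.98 with LPS, where the last value of each is on the doubted array. The median of the 10 was -0.14 and 0 of 10 passed against 0% of all genes (limma, 1300 genes with an unadjusted p under 0.05). Without the pair the median was -0.96 and 0 of 10 passed against 20.8%.

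**Figure D4:**
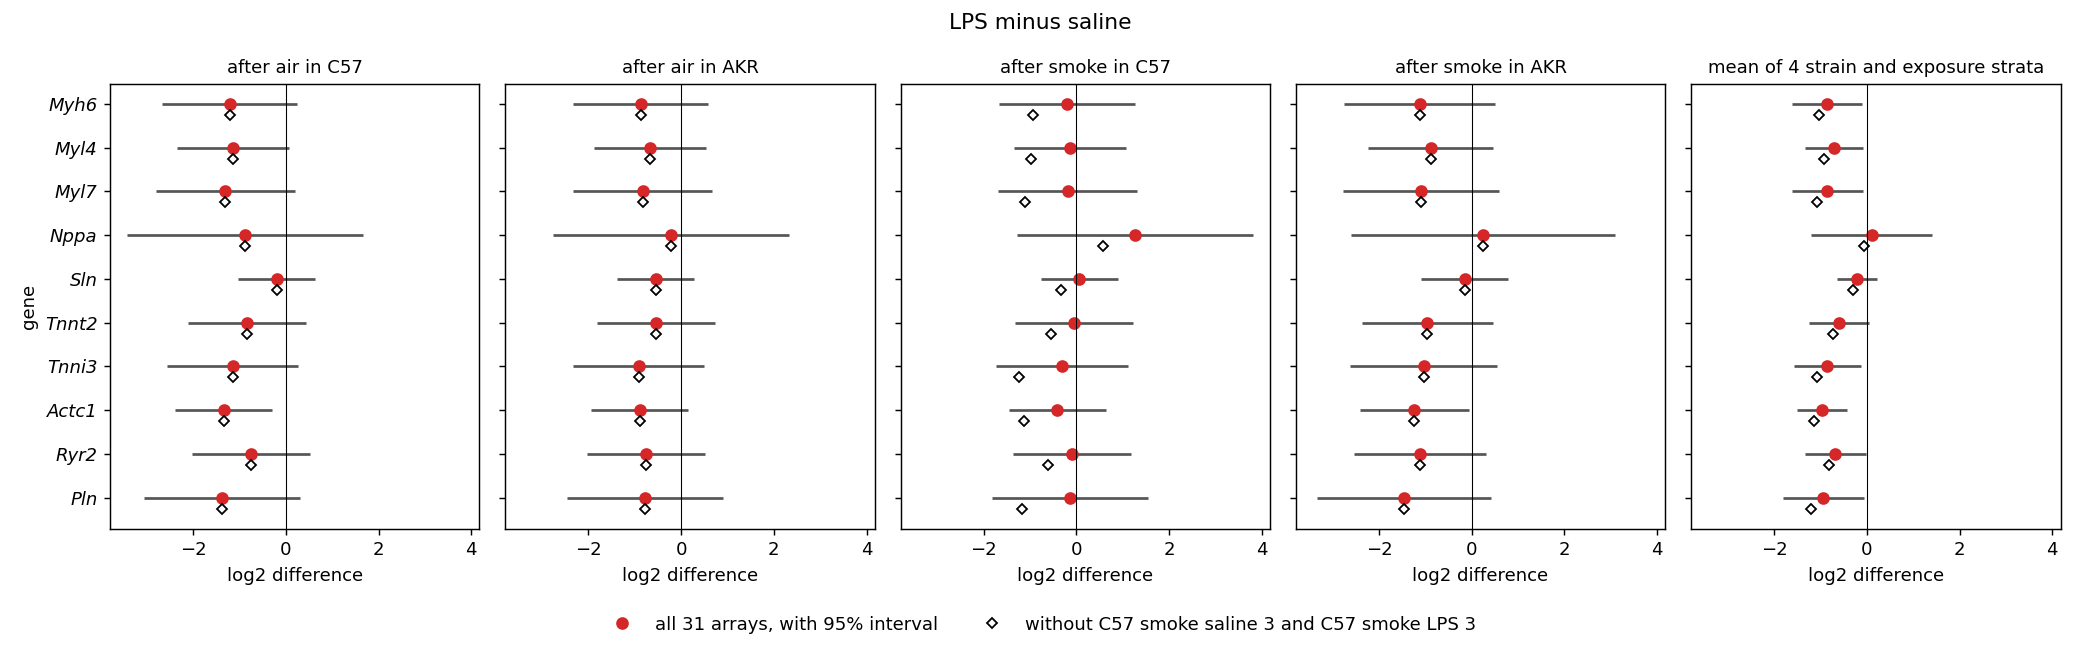
Log2 difference, LPS minus saline (horizontal axis), of each heart-type gene (vertical axis) in each stratum and averaged over the 4 strata (panels); red points are limma estimates, bars their 95% intervals, and diamonds the estimates without the doubted pair of arrays. The intervals are wide, with Actc1 at -0.97 in the average, and Nppa lies near 0 there.

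The response to LPS was not found to differ between strains or exposures for these genes. In the test of the difference of the LPS effect between AKR and C57 after air, 0 of 10 passed (lowest adjusted p 0.909) against 1.14% of all genes. A p that misses the threshold does not show that the strains respond alike. The same test after smoke gave 0 of 10 (lowest adjusted p 0.61, 1.82% of all genes called), and smoke by LPS gave 0 of 10 in C57 and in AKR (0% of all genes called in both, 1081 and 992 with an unadjusted p under 0.05). In these 4 tests 0 of the 10 had an unadjusted p under 0.05 in limma's test. In the tests between strains, 1651 of all genes had one after air and 2727 after smoke. Without the doubted pair, the test between strains after smoke gave 0 of 10 (lowest adjusted p 0.934, 135 of 14680 genes called), and smoke by LPS in C57 gave 0 of 10 (lowest adjusted p 0.998, 0 genes called), with 0 of the 10 under an unadjusted p of 0.05 in limma's test in both.

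Among other heart muscle genes, the share that fell with LPS differed from list to list, beside 25% of all genes called lower and 23.4% higher. Of 29 other sarcomere genes, 7 fell, a share near that of all genes, and 1 rose in the average over strata: the slow myosin Myh7 fell by 1.00 (standard error 0.10, limma adjusted p = 1.64e-07), Csrp3 fell by 0.87, and the stress responsive gene Ankrd1 rose by 1.10. Probes of Myh6 and Myh7, close paralogs, may cross-react, as may those of the actins. Of 14 muscle energy genes 8 fell, among them Ldhb by 0.93 and Fabp3 by 0.87, and of 11 heart transcription factors 6 fell, among them Tbx20 by 0.90. Of 15 calcium and ion channel genes 6 fell and 1 rose. Of 8 atrial and pulmonary vein genes 2 fell, and of 4 ventricle-type genes 2 fell. These lists share some genes. Of 14 smooth muscle markers 13 fell, with a median of -0.51, among them Hhip by 0.98, Cnn1 by 0.75 and Myh11 by 0.72. The mean level of the smooth muscle markers, relative to their mean over the 31 arrays, was 0.05 to 0.31 in C57 air and saline and -0.24 to 0.01 in C57 air and LPS, and 0.08 to 0.63 and -0.75 to -0.07 in the AKR groups. With group means removed, this mean had a correlation of 0.80 with that of the 10 genes over 31 arrays, and the part of smooth muscle in the result was not tested. Of 14 lung markers 7 also fell and 3 rose, among them the secretory cell gene Scgb3a2, which fell by 1.42, and the macrophage receptor Marco, which rose by 1.20. Without the doubted pair, beside 28.4% of all genes called lower, 12 of the 29 sarcomere genes, 11 of the 14 energy genes, 6 of the 11 transcription factors, 13 of the 14 smooth muscle markers and 7 of the 14 lung markers fell. So did 7 of the 15 calcium and ion channel genes, 4 of the 8 atrial and pulmonary vein genes and 3 of the 4 ventricle-type genes.

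The second question is how smoke alters the lung. Smoke against air gave 0 of 10 genes past the threshold in each of 4 comparisons, 0 had an unadjusted p under 0.05 in limma's test, and few or no genes at all were called. With saline, 0% of all genes were called in C57 mice and 0.034% in AKR mice. An unadjusted p under 0.05 in limma's test was found for 906 and 944 of 14705 genes. The median of the 10 was -0.60 in C57 mice and -0.49 in AKR mice. The largest was Nppa in C57, at -1.36 with a 95% interval of -3.91 to 1.19. Without the doubted pair the C57 median was -0.17. With LPS, the median was 0.32 in C57 mice, or -0.02 without the pair, and -0.81 in AKR mice. Of all genes 0% and 0.0068% were called, and 217 and 2342 had an unadjusted p under 0.05 in limma's test.

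The third comparison sets instilled saline after air against room air alone. In AKR mice the room air group compared was the one titled 3 wk (n = 2), in the same set of arrays as the saline group. The AKR room air group of 6 wk lies in the other set and is not part of this contrast. All 10 genes were higher with saline than in the 3 wk group, with a median difference of 1.25. As the genes moved together from lung to lung, these are not 10 separate observations. Of the 10 genes, 0 passed (limma, lowest adjusted p 0.276 for Ryr2, which differed by 1.41 ± 0.69) against 0.687% of all genes. The groups overlapped for all 10 genes, while 14.5% of all genes were higher and 27.2% lower without overlap. Ryr2 was 8.25 and 7.60 in room air alone and 9.67, 8.06 and 10.27 with saline. The highest of these lungs, replicate 3, also had 8.95 of Saa3, against 6.22 and 6.38 in the other lungs given saline after air. The AKR smoke and saline lungs had 8.09, 8.65 and 8.26 of it. Replicate 3 of AKR air and saline also had the lowest Pecam1 (10.73) and the lowest lung marker Ager (11.49) of the 31 arrays. The part of these levels in the difference was not tested. In C57 mice, where the titled exposures differ (6 wk in air alone, 3 wk before saline), the median difference was 0.19 and 0 of 10 passed against 0.0136% of all genes, which is 2 genes, or 1 with the replicate number as a block.

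The last comparison is of the strains in room air alone for 6 wk, 3 arrays each, within 1 set of arrays. The 10 genes had a median difference of -0.13, AKR minus C57, and 0 of 10 passed against 2.69% of all genes. Nppa had -1.81 with a 95% interval of -4.36 to 0.74, and Tnnt2 -0.82 with an interval of -2.09 to 0.45, while Myl7 had 0.15 and Myh6 0.13. The strains differed in 3 related genes: Myh7 was higher in AKR by 1.20 (standard error 0.19, limma adjusted p = 4.46e-04), Ankrd1 by 1.54 (adjusted p = 0.0106) and the gap junction gene Gja5 by 0.96 (adjusted p = 0.015). Gja5, although a gene of atrial muscle, is also used by arterial endothelium, and it did not follow the 10 genes from lung to lung (correlation -0.11).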

How the data were processed

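Lung RNA was hybridised to 31 1-colour arrays. The authors deposited 1 table of log2 intensities per probe set, made with RMA per the submitters' processing notes; the version, and which arrays were normalized together, are not given in the sources used here. Symbols came from the platform annotation: 21789 of 35556 probe sets had 1 symbol, 1621 several and 12146 none here, and only those with 1 were used.

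A gene was tested if it exceeded an array's 40th percentile on at least 3 arrays. limma 3.58.1 (R 4.3.3) was fitted to 11 group means over 31 arrays, with moderated two-sided tests and Benjamini-Hochberg adjustment over 14705 genes. The number of arrays limits the precision. The fit was tested on simulated data. Figures were drawn with matplotlib 3.10.9.

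Beside the members, named genes were up to 4 of each fixed list with large differences or those past the threshold, the 10 genes most like the members, and lung markers; others were chosen after their values were seen, among them Saa3 and Cxcl2. The members and lists were chosen with earlier results of these data known. Alternatives were another filter, scaling, variance model, probe choice and choice of arrays, and a replicate block.

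Same-numbered replicates were checked for pairing by the correlation of their deviations from the group means. Of 36 pairs of groups that share 3 numbers, 2 had every correlation over 0.1, and of the comparisons made here this concerns saline against room air alone in C57 mice (0.23 to 0.41).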

Additional observations from a re-analysis of the deposited data

How the results depend on the processing

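The count of heart-type genes past the threshold in the average LPS comparison was 1 in the fit reported and 7 without the doubted pair of arrays, 2 with only the groups compared, 2 with the stricter filter (above the 60th percentile, which leaves Sln out) and 4 after quantile normalization of the 31 arrays. With 1 array left out at a time it ran from 1 to 7, and it was 3 or more without C57 room air alone 1, AKR room air alone (6 wk) 2, C57 smoke and saline 3, C57 air and LPS 1, C57 smoke and LPS 3, AKR air and saline 2, AKR smoke and saline 3, AKR air and LPS 1 or AKR smoke and LPS 1. Actc1 was below 0 there in each of these fits, between -1.15 and -0.78 with 1 array left out. After air in C57 mice the count was 0, but 1 without the pair and 4 with only the groups compared. It ran from 0 to 1 with 1 array left out, being 1 without C57 smoke and LPS 3 or AKR air and LPS 2. After smoke in AKR mice it was 0 and ran from 0 to 1, being 1 without AKR smoke and LPS 1. The lone array left in such a group is assumed to vary like the others. With the replicate number as a block the counts were 1 in the average comparison and 0 in the others, and the block changed no call of the 10 genes. The cause of these differences was not tested. The other comparisons had 0 of 10 in every setting run, and 10 of 10 genes stayed above the 95th percentile of spread. Medians of the 10 depended on single lungs: with 1 array left out, that of LPS against saline after air in AKR mice ran from -1.30 to -0.18, after smoke in AKR mice from -1.85 to -0.19, and that of the strains in room air alone from -0.64 to 0.20.

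The number of all genes called moved too. In the average LPS comparison it was 7110 in the fit reported, 7947 without the doubted pair, 6723 with only the groups compared, 6200 with the stricter filter and 7194 after quantile normalization. Without the pair it went from 0 to 3048 for LPS after smoke in C57 mice, from 5 to 49 for smoke with saline in AKR mice, from 1 to 228 for smoke with LPS in AKR mice, from 2 to 16 and from 101 to 326 for saline against room air alone in C57 and AKR mice, and from 167 to 402 for the difference in LPS response between strains after air. With only the groups compared, LPS after air in AKR mice went from 2479 to 1485, and saline against room air alone in AKR mice from 101 to 0. For LPS after air in C57 mice, 1684 of 2316 called genes were higher in the fit reported and 1356 of 2272 after quantile normalization. Signal limits Sln and Nppa, which lay under the 40th percentile on 6 of the 31 arrays.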
